A study of Homo sapiens with 2 samples.

Results

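The barcodes described here carried an unusually large share of mitochondrial RNA in a single-cell experiment on RWPE1, an immortalized line of non-tumorigenic human prostate epithelial cells. They were chosen by 2 values of each barcode, at least 200 detected genes and at least 7.5% of its unique molecular identifiers (UMIs, each standing for 1 captured RNA molecule) in the 13 protein-coding genes of the mitochondrial genome. The rule found 440 of 17355 barcodes (2.54%, 95% exact binomial interval 2.31 to 2.78) in RWPE-ERG-mAKT cells and 2139 of 12468 barcodes (17.2%, 16.5 to 17.8) in RWPE1 cells, 2579 of 29823 in all. These members were set against the other 16915 and 10329 barcodes of their own library. RWPE-ERG-mAKT cells are RWPE1 cells that express exogenous ERG, an ETS transcription factor, together with myristoylated AKT, a form of the kinase held at the membrane and so active. The RWPE1 library is labelled as a vector only control and is called parental in the study's text. Both cultures were trypsinized, 10000 cells of each were loaded on a Chromium instrument with a 3′ kit, and 1 library was made for each condition. With 1 library a condition there is no replicate, so no difference between conditions was tested, and every interval given here covers counting error only.

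Mitochondria carry their own circular genome, which is transcribed from both strands as long precursors and cut into messenger, ribosomal and transfer RNAs inside the organelle. Its messenger RNAs encode subunits of respiratory complexes I, III and IV and of the ATP synthase, while nuclear genes encode the other subunits, complex II and the proteins that copy, transcribe and translate the mitochondrial genome. In single-cell libraries the share of mitochondrial RNA is widely used as a quality measure, because a cell with a leaky plasma membrane can lose RNA from the cytosol while RNA enclosed in mitochondria or the nucleus stays behind. The share also differs between cell types and metabolic states, so a high value alone does not tell these apart.

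The mitochondrial sequences bear on what the counts can and cannot separate, and 3 of them are shown for that reason. MTRNR2L12 and MTRNR2L8 are nuclear genes that resemble MT-RNR2, the mitochondrial 16S ribosomal RNA gene, which is not among the counted features. Over aligned transcripts MTRNR2L12 matched MT-RNR2 at 998 of 1050 positions (95.05%), MTRNR2L8 at 1213 of 1304 (93.02%) and MTRNR2L10 at 1265 of 1572 (80.5%). The lines below give the stretch that holds the short reading frame of the humanin family with its stop, in the GRCh38 build and in the transcribed direction. Capitals mark bases that differ from MT-RNR2.
MTRNR2L12, chr3:96617199-96617273, minus strand: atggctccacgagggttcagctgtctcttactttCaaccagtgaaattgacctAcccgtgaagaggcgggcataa
MT-RNR2, chrM:2633-2707, plus strand: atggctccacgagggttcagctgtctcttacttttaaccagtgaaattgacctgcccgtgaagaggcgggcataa
MTRNR2L8, chr11:10508152-10508226, minus strand: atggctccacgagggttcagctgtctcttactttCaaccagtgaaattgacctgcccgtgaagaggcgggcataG
In this window MTRNR2L12 and MTRNR2L8 each differed from the mitochondrial gene at 2 of 75 bases, and MTRNR2L10, on chromosome X, at 11. Counts given to these nuclear genes are therefore uncertain, since reads of the 16S RNA and reads of the nuclear copies are hard to tell apart.

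MT-ATP8 and MT-ATP6, subunits of the ATP synthase, overlap on the mitochondrial genome and share a messenger RNA, as do MT-ND4L and MT-ND4, subunits of complex I. The ends of the first genes and the starts of the second are shown because reads in the capitals belong to both genes of a pair.
MT-ATP8 and MT-ATP6, chrM:8515-8584, plus strand: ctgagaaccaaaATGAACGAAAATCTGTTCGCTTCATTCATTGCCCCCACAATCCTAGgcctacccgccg
MT-ND4L and MT-ND4, chrM:10748-10778, plus strand: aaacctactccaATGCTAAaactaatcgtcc
The ATP synthase pair shared 46 bases and the complex I pair 7. A 3′ library reads mainly the ends of RNAs, so the split of counts within a pair can depend on where reads fall.

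The mitochondrial shares, which chose the members, are given as a description. The median share was 11.7% in the members of RWPE-ERG-mAKT cells against 2.63% in the rest, and 9.73% in the members of RWPE1 cells against 5.41% in the rest. Members reached from 7.51% to 65.7% in RWPE-ERG-mAKT cells and from 7.5% to 90.8% in RWPE1 cells. The threshold thus stood far out in the tail of RWPE-ERG-mAKT cells but on the shoulder of the main peak of RWPE1 cells. Just inside it, at 7.5 to 8.0%, lay 47 barcodes with a median of 6866 other UMIs and 3187 genes in RWPE-ERG-mAKT cells, and just outside, at 7.0 to 7.5%, lay 51 with 4188 UMIs and 2093 genes. In RWPE1 cells 457 barcodes lay just inside, with 13003 UMIs and 4291 genes, and 755 just outside, with 13995 UMIs and 4429 genes. Nothing in depth or gene number marked the threshold itself in RWPE1 cells.

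Members held less of all other RNA, a description only, since other UMIs are part of the share that chose the members. After mitochondrial UMIs were taken out, the median barcode had 2439 UMIs among members and 11601 in the rest of RWPE-ERG-mAKT cells, and 9262 among members and 15780 in the rest of RWPE1 cells. Median mitochondrial UMIs differed far less, at 381 in members against 313 in the rest of RWPE-ERG-mAKT cells and at 1085 against 901 in RWPE1 cells. Across bands of mitochondrial share the non-mitochondrial side differed most. In RWPE-ERG-mAKT members the median of other UMIs was 4675 at 7.5 to 10%, 2278 at 10 to 20%, 520 at 20 to 40% and 511 at 40% or more, and that of mitochondrial UMIs was 433, 349, 240 and 532. In RWPE1 cells other UMIs stood at 15240 at 5 to 7.5%, just below the threshold, and at 12491, 7092.5, 2727 and 547.5 in the same 4 bands of members, while mitochondrial UMIs stayed between 955 and 1128 over all 5 of these bands.

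**Figure D1:**
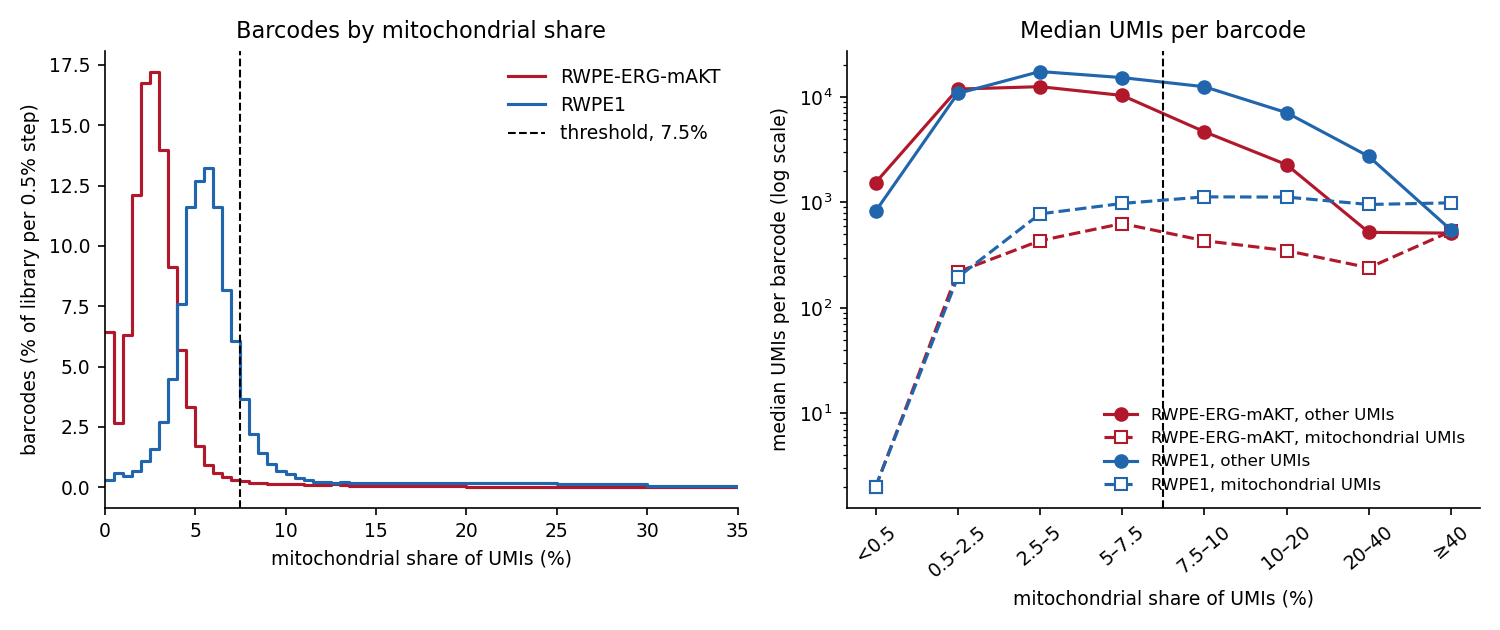
Left, barcodes in percent of each library against their mitochondrial share of UMIs in steps of 0.5 percentage points up to 35%, with the 7.5% threshold as a dashed line. Right, the median mitochondrial (open squares) and other (filled circles) UMIs per barcode on a log axis over 8 bands of mitochondrial share. Past the threshold other UMIs dropped to 511 in RWPE-ERG-mAKT cells and 547.5 in RWPE1 cells in the last band, while mitochondrial UMIs stayed within 240 to 532 and 955 to 1128.

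The share of members was uneven across depth, and since other UMIs enter the rule, this too is a description. Of RWPE-ERG-mAKT barcodes with 2000 to 5000 non-mitochondrial UMIs, 150 of 1071 (14.0%) were members, and of those with 10000 to 20000 UMIs 0.413%. In RWPE1 cells 451 of 519 barcodes (86.9%) with 2000 to 5000 UMIs were members, against 11.4% of those with 10000 to 20000. Barcodes of intermediate depth in RWPE1 cells were thus mostly members, and those under 1000 UMIs were so less often, at 34.7%. The libraries thus differed at equal depth as well as in their main peak, and this difference has no replicate check.

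Summed over members, the other RNA amounted to 1640042 UMIs in RWPE-ERG-mAKT cells and 21045903 in RWPE1 cells, against 229025594 and 183514729 in the rest. A member supplied at most 1.63% and 0.231% of those sums. The submitted tables held 36 further RWPE1 barcodes with under 200 genes, all at 71.0% or more mitochondrial UMIs, which the rule left out. The 2 libraries shared 55 barcode sequences, of which 3 and 6 were members. In RWPE1 cells 1 member and 52 other barcodes held at least 2 UMIs of brain-type genes, and in RWPE-ERG-mAKT cells 0 did. KRT5, the basal keratin, had a UMI in 89.5% of members in RWPE-ERG-mAKT cells and 91.8% in RWPE1 cells.

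Summed over all members, the make-up of the mitochondrial RNA itself was nearly the same as in the rest. MT-CO2, a core subunit of cytochrome c oxidase (complex IV), led in both libraries with 25.6% of mitochondrial UMIs in members against 26.5% in the rest of RWPE-ERG-mAKT cells and 25.5% against 25.9% in RWPE1 cells. MT-ATP6 held a larger share in members, at 16.5% against 14.6% (log2 ratio 0.18) and at 12.3% against 11.1% (0.15). MT-ATP8, the overlapping partner shown above, did so too, at 0.584% against 0.481% (0.28) and at 0.456% against 0.386% (0.24). MT-ND4L stood at 0.546% against 0.426% in RWPE-ERG-mAKT cells (0.36, 95% Poisson interval 0.27 to 0.44), but at 0.243% against 0.237% in RWPE1 cells (0.04). Its partner MT-ND4 was lower in RWPE-ERG-mAKT members, at 7.90% against 8.65% (-0.13), and so the complex I pair moved apart while the ATP synthase pair moved together. MT-ND6, the complex I subunit on the other strand, was rare at 0.169% against 0.155% and 0.179% against 0.158%. Over all members together, no mitochondrial gene had a share above that in the rest by more than a log2 ratio of 0.36.

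The near copies of 16S RNA were among the nuclear genes that stood highest. Levels from here on are counts per 1000000 non-mitochondrial UMIs (CPM) summed over barcodes, with the members' value first, and log2 ratios are members over the rest of the same library. The MTRNR2L genes together had 47.6 CPM in members against 7.42 in the rest of RWPE-ERG-mAKT cells (log2 ratio 2.68, 2.33 to 3.01, from 78 UMIs in members) and 185 against 73.8 in RWPE1 cells (1.33, 1.28 to 1.38). MTRNR2L12 had 32.9 against 4.44 CPM (2.89) and 84.1 against 30.9 CPM (1.44), and MTRNR2L8 had 14.0 against 2.80 CPM (2.32) and 95.4 against 39.3 CPM (1.28). Their sum was larger in each higher band, with 24.2, 64.7, 140 and 540 CPM over the 4 bands of RWPE-ERG-mAKT members and 108, 253, 734 and 3518 CPM over those of RWPE1 members. The RWPE-ERG-mAKT bands at 20 to 40% and at 40% or more held only 42870 and 14819 non-mitochondrial UMIs. Their values thus rest on few UMIs, and steps between neighbouring bands were not tested. MTRNR2L10, whose copy is least like the mitochondrial gene, had no UMI in RWPE-ERG-mAKT members and 4.32 against 2.25 CPM in RWPE1 cells (0.94). The share of these counts that came from mitochondrial 16S RNA was not tested.

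Across all genes with at least 50 CPM on either side, members of RWPE-ERG-mAKT cells had 959 of 4464 genes (21.5%) more than 2-fold higher and 28 (0.627%) more than 2-fold lower than the rest. In RWPE1 cells 5 of 4144 genes (0.121%) were more than 2-fold higher and 0 (0%) lower. Of 3641 genes past the floor in both libraries, 1 (0.0275%) was past 2-fold higher in both and 0 (0%) lower in both. The median gene itself stood at 0.25 in RWPE-ERG-mAKT cells and 0.15 in RWPE1 cells, while many of the most abundant transcripts were lower in members. Over all measured genes 13297 of 22360 and 16967 of 23128 were higher in members. Median-of-ratios scaling would take 0.19 and 0.12 off every log2 ratio given here, so ratios between 0 and those values change sign under it.

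The 1 gene past 2-fold in both libraries was VAV3, a guanine nucleotide exchange factor of small GTPases, with 53.7 against 20.5 CPM in RWPE-ERG-mAKT cells (1.39, 1.07 to 1.70) and 50.03 against 24.7 CPM in RWPE1 cells (1.02, 0.92 to 1.11). This call was lost with depth matched (0.99 and 1.02), against barcodes of 2.5 to 7.5% only (1.23 and 1.00) and under median-of-ratios scaling (1.20 and 0.89). The other genes past 2-fold in RWPE1 cells were MTRNR2L12, MTRNR2L8, S100A8 and LY6D, named because the count was small. LY6D, a membrane protein of stratified epithelium, had 109 against 35.5 CPM in RWPE1 cells (1.62); 1 barcode held 87.1% of its UMIs among the RWPE-ERG-mAKT members. Next after VAV3 in both libraries came FAT2, an atypical cadherin (1.35 and 0.97), MTSS1, a membrane-bending actin regulator (0.97 and 0.87), SH3PXD2A, a scaffold of invadopodia (1.21 and 0.85), and ATP2B4, a calcium pump of the plasma membrane (1.41 and 0.83). KIAA1217 (1.62 and 0.78), CHRM3, a muscarinic receptor (1.39 and 0.75), FBXL20 (1.69 and 0.74), PRKG1, a cGMP-dependent kinase (1.54 and 0.74), and ARL15, a small GTPase (1.77 and 0.73), followed. All 10 are genes of long span, FAT2 the shortest at 64.9 kb and PRKG1 the longest at 1307 kb.

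Lowest in both were short, abundant or cycle-linked messages. VIM, the intermediate filament vimentin, had 151 against 279 CPM in RWPE-ERG-mAKT cells (-0.89) and 165 against 275 CPM in RWPE1 cells (-0.74). HIST1H4C, a histone H4 gene expressed in S phase, had 275 against 805 CPM (-1.55), with 21.5% of the members' UMIs in 1 barcode, and 618 against 1018 CPM in RWPE1 cells (-0.72). UBE2C, which loads ubiquitin for the anaphase-promoting complex (-0.63 and -0.59), TUBA1B, an alpha tubulin (-0.55 in both), MAD2L1, a spindle checkpoint protein (-0.61 and -0.54), and CCNA2, cyclin A (-0.84 and -0.49), were lower as well. So were ODC1, the first enzyme of polyamine synthesis (-0.73 and -0.49), RSL1D1, a nucleolar protein (-0.86 and -0.47), and TMSB4X, the actin-binding thymosin beta 4 (-0.68 and -0.49).

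Bands of mitochondrial share showed that the small differences in RWPE1 members as a whole averaged unlike barcodes. RWPE-ERG-mAKT members had 314 of 4160 genes (7.55%) more than 2-fold higher and 20 (0.481%) lower than barcodes under 7.5% in the 7.5 to 10% band, and 1748 of 4924 (35.5%) higher and 387 (7.86%) lower at 10 to 20%. In RWPE1 cells at 7.5 to 10%, where 1108 of the 2139 members lay, 4 of 3832 genes (0.104%) were higher and 0 (0%) lower. At 10 to 20% it was 379 of 4729 genes (8.01%) higher and 4 (0.0846%) lower, and at 20 to 40% 2638 of 5525 (47.7%) higher and 1006 (18.2%) lower. The bands above that held 45 and 27 barcodes in RWPE-ERG-mAKT cells and 80 at 40% or more in RWPE1 cells, and their calls over all genes are not given at that depth.

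Nuclear long RNAs were higher in members, with a sum at 1.85 in RWPE-ERG-mAKT cells and 0.59 in RWPE1 cells. MALAT1, a long noncoding RNA kept in nuclear speckles, had 30018 against 8091 CPM in RWPE-ERG-mAKT cells (1.89, 1.88 to 1.90) and 15434 against 10359 CPM in RWPE1 cells (0.58, 0.57 to 0.58). NEAT1, the scaffold of paraspeckles, had 2725 against 859 CPM (1.67) and 2662 against 1662 CPM (0.68). KCNQ1OT1, an imprinted nuclear transcript, had 30.5 against 10.3 CPM (1.56) and 31.8 against 20.8 CPM (0.61). Of the 7 measured genes of this list 6 were higher in members of either library, with medians of 1.40 and 0.51. In RWPE-ERG-mAKT cells MALAT1 stood at 1.25 in the 7.5 to 10% band, 2.53 at 10 to 20%, 1.94 at 20 to 40% and -1.45 at 40% or more, so that the 27 barcodes with the most mitochondrial RNA had less MALAT1 than the rest. In RWPE1 cells it stood at 0.06, 1.16, 2.10 and 0.87 in the same bands.

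Messages of cytosolic ribosomal proteins went the other way. All 84 measured were lower in members of both libraries, with medians of -0.44 and -0.23 and sums of 185881 against 251706 CPM in RWPE-ERG-mAKT cells (-0.44) and 226595 against 265966 CPM in RWPE1 cells (-0.23). RPL5 stood at -0.56 and -0.32, and RPL4 at -0.58 and -0.29. None was past 2-fold over all members, but in the 20 to 40% band of RWPE1 cells 83 of 84 were. Their sum over the bands was 222310, 130133, 176347 and 265605 CPM in RWPE-ERG-mAKT members and 259752, 165448, 42829 and 106998 CPM in RWPE1 members.

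Other abundant cytosolic messages moved with the ribosomal proteins. The 20 genes of this list were all lower in RWPE-ERG-mAKT members (median -0.60, sum -0.55) and 19 were lower in RWPE1 members (-0.26 and -0.25). GAPDH, the glycolytic enzyme, had 1783 against 3265 CPM (-0.87) and 2202 against 2817 CPM (-0.36), with 409 CPM in the 20 to 40% band of RWPE1 cells (-2.78). PFN1, the actin monomer binder profilin, stood at -0.87 and -0.36, and LDHA, lactate dehydrogenase, at -0.84 and -0.35. In that band of RWPE1 cells all 20 were more than 2-fold lower and their sum stood at -2.59.

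**Figure D2:**
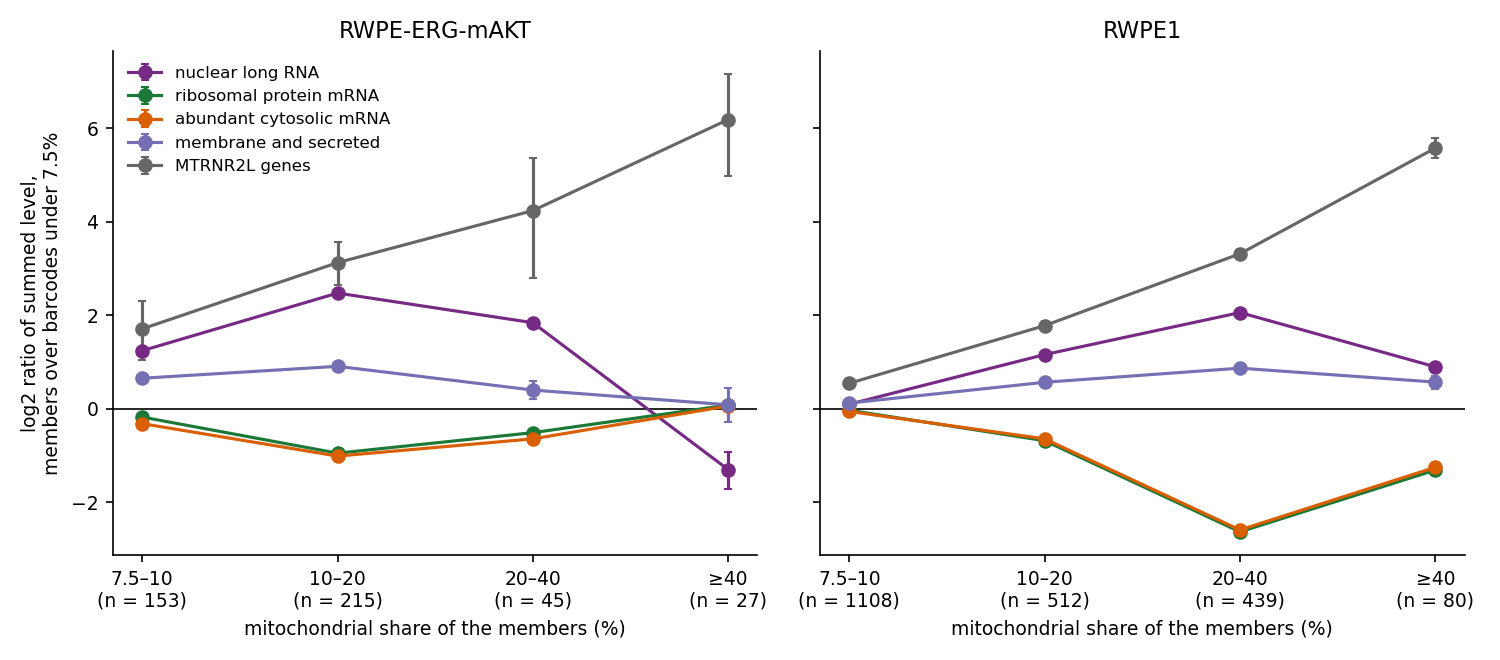
Log2 ratio of the summed level of 5 gene lists (members of a band over barcodes under 7.5% of the same library) against the band of mitochondrial share, with 95% Poisson intervals and the number of members under each band. Nuclear long RNA peaked at 2.47 in the 10 to 20% band of RWPE-ERG-mAKT cells and at 2.06 in the 20 to 40% band of RWPE1 cells. Ribosomal protein messages were lowest in those bands (-0.95 and -2.63). The MTRNR2L genes stood higher in each higher band, on few UMIs in the RWPE-ERG-mAKT bands from 20% up.

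Medians over single members showed the same opposition below 20% in RWPE-ERG-mAKT members and above 10% in RWPE1 members. The other bands did not show it. Nuclear long RNA made up a median of 2.22, 4.37, 0.283 and 0.259% of the non-mitochondrial UMIs over the 4 bands of RWPE-ERG-mAKT members, against 0.851% in the rest, and 1.12, 2.37, 4.60 and 1.33% over those of RWPE1 members, against 1.14% in the rest. Ribosomal protein messages made up 19.3, 11.4, 29.4 and 26.5% in RWPE-ERG-mAKT members, against 25.4% in the rest, and 26.6, 14.6, 3.38 and 12.5% in RWPE1 members, against 26.6% in the rest. The 10 to 20% band of RWPE1 cells was spread from 1.32 to 29.2% between its 5th and 95th percentiles, with quartiles of 2.83 and 23.1%. The 20 to 40% band ran only from 1.61 to 11.2%. In RWPE-ERG-mAKT cells the bands above 20% lay near the rest in ribosomal share and low in nuclear long RNA, unlike those of RWPE1 cells. At 20 to 40% this median ran against the sum of nuclear long RNA, 32750 CPM against 9151 CPM in the rest. Deep barcodes weigh most in such sums.

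**Figure D3:**
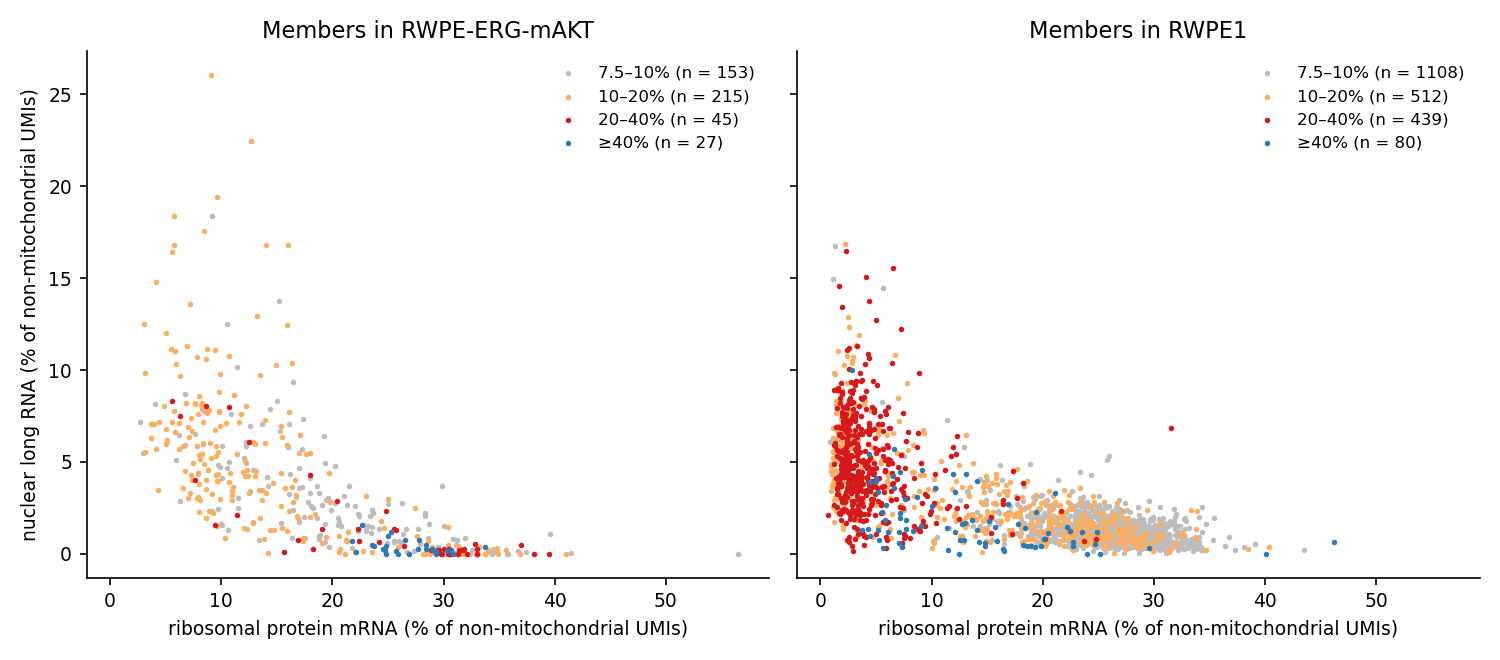
Each point is 1 member, with ribosomal protein messages on the horizontal axis and nuclear long RNA on the vertical axis, both in percent of non-mitochondrial UMIs and coloured by band of mitochondrial share. RWPE-ERG-mAKT members at 40% or more lie at the lower right (median 26.5% ribosomal), whereas most RWPE1 members at 20 to 40% lie in a column at the left edge (median 3.38%), apart from those at 7.5 to 10% (median 26.6%).

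Depth moved with these differences, and values with depth matched are a description only, since other UMIs are part of the rule. RWPE-ERG-mAKT barcodes with under 1000 and with 1000 to 2000 other UMIs had median mitochondrial shares of 0.286% and 0.277%. The shallow barcodes given weight were thus mostly of very low mitochondrial share. With depth matched, 9 of 84 list medians and 12 of 346 single-gene ratios changed sign. When the rest were weighted to the members' distribution of non-mitochondrial UMIs, MALAT1 stood at 1.83 in RWPE-ERG-mAKT cells and 0.47 in RWPE1 cells, and GAPDH at -0.999 and -0.33. The median of the ribosomal protein list was -0.48 and -0.24. That of nuclear long RNA was 1.42 and 0.32, against 1.40 and 0.51 without matching. With 10% as the threshold and depth matched, an alternative chosen after the values were seen, MALAT1 stood at 2.32 and 1.07 and the ribosomal protein list at -0.93 and -0.94.

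The span of a gene on the chromosome went with its level in members. Protein-coding genes under 10 kb had a median log2 ratio of -0.31 in RWPE-ERG-mAKT cells, those of 10 to 30 kb -0.01, of 30 to 100 kb 0.44, of 100 to 300 kb 0.91 and of 300 kb or more 1.28. In RWPE1 cells the medians were -0.05, 0.08, 0.24, 0.38 and 0.44. The longest spliced length went with the level as well. Among genes under 10 kb the RWPE-ERG-mAKT medians were -0.42 for spliced lengths under 2 kb, -0.18 at 2 to 4 kb and 0.07 at 4 kb or more. The RWPE1 medians were -0.13, 0.02 and 0.09. With a spliced length of 4 kb or more, genes of 300 kb or more still stood at 1.29 and 0.44. Of the genes of 300 kb or more 96.7% were higher in RWPE-ERG-mAKT members and 95.1% in RWPE1 members. Together they took 5.27% of the UMIs of members against 2.14% in the rest of RWPE-ERG-mAKT cells and 4.76% against 3.48% in RWPE1 cells. The gradient was steepest where nuclear long RNA was highest. At 10 to 20% in RWPE-ERG-mAKT cells genes under 10 kb had a median of -0.58 and those of 300 kb or more 1.72, and at 20 to 40% in RWPE1 cells the medians were -0.61 and 1.58. In that RWPE1 band genes under 10 kb held 9.43% of UMIs, against 38.6% in the rest, and genes of 300 kb or more 10.9%, against 3.48%. Long noncoding RNAs had medians of 0.61 and 0.32. Genes without an intron stood at -0.20 and 0.01, against -0.32 and -0.06 for genes of several exons under 10 kb. Whether reads in introns were counted is not given in the sources used here, and unspliced RNA was not counted apart, so its part in the gradient was not tested.

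**Figure D4:**
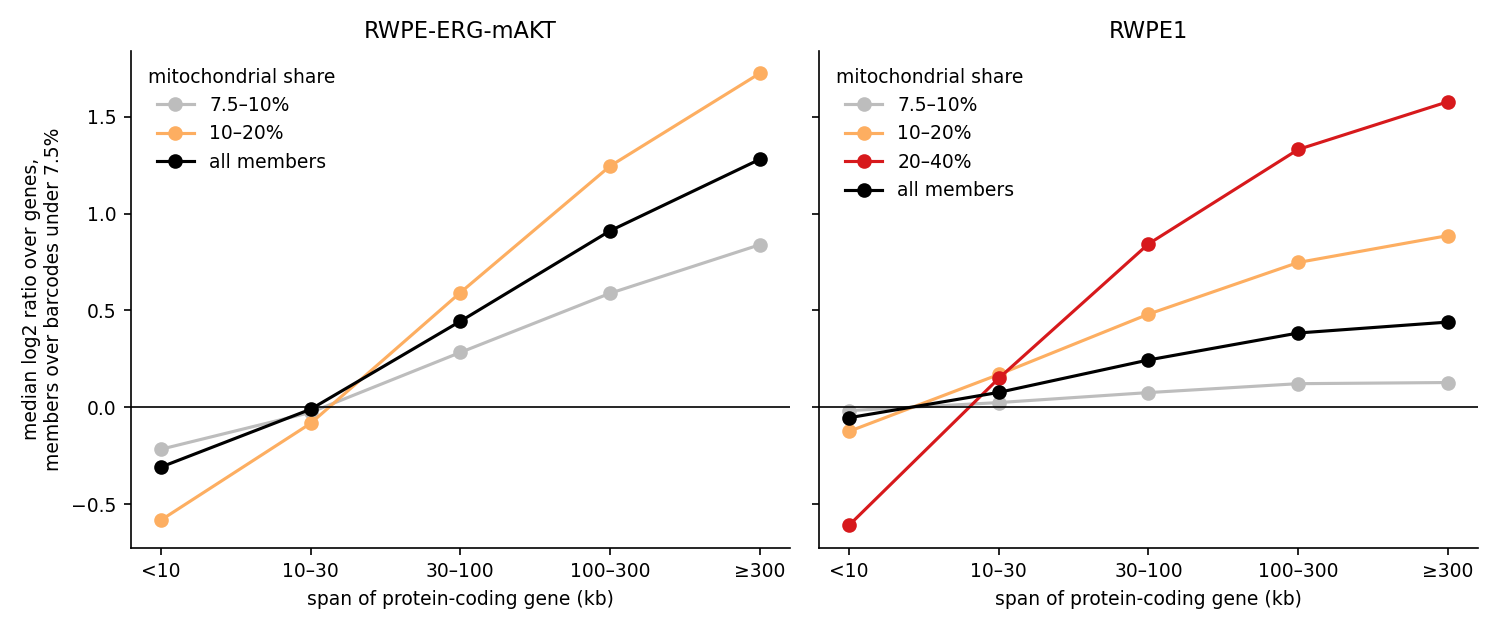
Median log2 ratio over protein-coding genes (members over barcodes under 7.5% of the same library) against the gene's span in kb, for all members and for bands of mitochondrial share. The medians of all members increased with span, to 1.28 in RWPE-ERG-mAKT cells and 0.44 in RWPE1 cells, most steeply in the 10 to 20% band (1.72 at 300 kb or more) and the 20 to 40% band (1.58).

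The transcript starts of several genes that were lower are shown because they hold the run of pyrimidines found at the start of messages for ribosomal proteins and translation factors. The lines give the first 20 bases from the RefSeq start on GRCh38.p14 in the transcribed direction, with capitals for unbroken C or T from the first base. MALAT1 and VAV3 are given as genes that were higher.
RPL12, chr9:127451387-127451406, minus strand: CCTCTCggctttcggctcgg
RPS27, chr1:153990762-153990781, plus strand: CCTTTCCggcggtgacgacc
EEF1A1, chr6:73521013-73521032, minus strand: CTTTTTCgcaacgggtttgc
TPT1, chr13:45341164-45341183, minus strand: CTTTTCCgcccgctcccccc
NPM1, chr5:171387849-171387868, plus strand: CTTTCCCTggtgtgattccg
BTF3, chr5:73498442-73498461, plus strand: CCCTTTagctgccatcttgc
MALAT1, chr11:65497738-65497757, plus strand: Cgcagcctgcagcccgagac
VAV3, chr1:107688480-107688499, minus strand: agtggtgttttaccactctg
EEF1A1, the elongation factor that brings transfer RNA to the ribosome, had 3322 against 4370 CPM in RWPE-ERG-mAKT cells (-0.40) and 7304 against 8745 CPM in RWPE1 cells (-0.26). TPT1 stood at -0.51 and -0.23, RPL12 at -0.57 and -0.29, RPS27 at -0.29 and -0.22, NPM1, nucleophosmin, at -0.63 and -0.45, and BTF3, a partner of nascent chains, at -0.80 and -0.36. A start of C and then at least 4 more C or T, read on the transcribed strand only, was found at 1104 of 27305 RefSeq starts (4.04%). Outside the ribosomal proteins 221 tested genes had such a start, with a median of -0.17 in RWPE-ERG-mAKT cells, against 0.18 over all 3695 genes tested with a RefSeq start, and 220 had a median of -0.08 in RWPE1 cells, against 0.12 over 3424. Among genes under 10 kb the medians were alike, -0.46 over 49 with the start and -0.52 over 513 without in RWPE-ERG-mAKT cells and -0.21 over 49 and 429 in RWPE1 cells. Within short genes, then, genes with and without the start had like medians, and the match is a description of letters only.

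The nuclear partners of the mitochondrial genome did not share its excess. Of the nuclear subunits of complex I, 35 of 37 were lower in RWPE-ERG-mAKT members (sum -0.40) and 34 of 37 in RWPE1 members (-0.14), with NDUFS6 at 604 against 888 CPM (-0.56) and 359 against 431 CPM (-0.26). All 9 of complex III were lower in both (-0.56 and -0.18), as UQCRH shows at -0.61 and -0.15. In complex IV 10 of 11 were lower in either library (-0.26 and -0.11), with COX7C at -0.39 and -0.15. All 17 of the ATP synthase were lower (-0.51 and -0.20), with ATP5MG at 223 against 415 CPM (-0.90) and 409 against 464 CPM (-0.18). Complex II, which has no mitochondrially encoded subunit, was lower for 3 of 4 genes in RWPE-ERG-mAKT members and 2 of 4 in RWPE1 members. In the 20 to 40% band of RWPE1 cells the sums stood at -1.45 for complex I, -0.35 for complex II, -2.02 for complex III, -1.76 for complex IV and -2.26 for the ATP synthase. These are mostly short, abundant messages, like the ribosomal proteins.

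Among proteins of the mitochondrial ribosome 75 of 78 were lower in members of either library (sums -0.55 and -0.23), MRPL17 at -0.83 and -0.41 and MRPL37 at -0.96 and -0.27. Genes that make and process mitochondrial RNA were mixed, with 11 of 26 (42.3%) higher in RWPE-ERG-mAKT members and 15 of 26 (57.7%) in RWPE1 members. These shares lay below the 59.5% and 73.4% of all genes, and the sums stood at -0.16 and -0.05. The genes of this list given next are all among the higher ones. FASTKD1, an RNA-binding protein of mitochondria, had 51.2 against 28.5 CPM (0.85) and 71.7 against 49.1 CPM (0.55). PRORP, the nuclease that cuts transfer RNAs out of the precursors, stood at 0.85 and 0.32, TFB1M, a methyltransferase of mitochondrial ribosomal RNA, at 0.90 and 0.25, and POLG, the mitochondrial DNA polymerase, at 0.81 and 0.34. Import and protease genes were lower for 15 of 20 and 14 of 20, TOMM22, a receptor of the outer membrane, with 92.1 against 188 CPM (-1.03) and 65.9 against 80.5 CPM (-0.29).

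Genes of mitochondrial dynamics and turnover were higher for 11 of 18 in RWPE-ERG-mAKT members (61.1%) and 13 of 18 in RWPE1 members (72.2%), near the 59.5% and 73.4% of all genes, with sums of -0.17 and 0.04. NRF1, a transcription factor of nuclear genes for mitochondria, stood at 1.22 and 0.46 on 145 kb. BNIP3, a mitophagy receptor on a gene of 15.6 kb, stood at -0.82 and -0.30. In the citric acid cycle OGDH, part of oxoglutarate dehydrogenase, had 145 against 71.6 CPM (1.02) and 120 against 88.9 CPM (0.43), while 9 of 15 genes of that list were lower in either library. The higher genes named here all spanned more than the lower one, as over all genes.

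Apoptosis genes of the BCL2 family and its partners were higher for 12 of 18 in RWPE-ERG-mAKT members (66.7%) and 14 of 18 in RWPE1 members (77.8%). These shares were near the 59.5% and 73.4% of all genes. The medians of the list were 0.26 and 0.12, beside all-gene medians of 0.25 and 0.15, and the RWPE1 median falls just below 0 under median-of-ratios scaling. The sums of the list stood on the other side of 0, at -0.25 and -0.04. The RWPE-ERG-mAKT median was -0.32 at a 15% threshold and -0.14 with equal weight for each cell. TNFRSF10B, a death receptor, had 85.4 against 44.2 CPM (0.95) and 40.7 against 29.6 CPM (0.46). BCL2L1, which encodes the survival protein BCL-XL, stood at 0.72 and 0.24. CYCS, cytochrome c, had 451 against 734 CPM (-0.70) and 333 against 432 CPM (-0.38), like other respiratory messages.

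Messages for membrane and secreted proteins, which are translated on the endoplasmic reticulum, were higher. Of 30 such genes 29 (96.7%) were higher in RWPE-ERG-mAKT members, 9 of them past 2-fold (30%, beside 16.9% of all measured genes), and 25 (83.3%) were higher in RWPE1 members, beside 59.5% and 73.4% of all genes, with sums of 6943 against 4141 CPM (0.75) and 6411 against 5281 CPM (0.28). Their medians were 0.82 and 0.31, beside 0.25 and 0.15 over all genes. Protein-coding genes of 30 to 100 kb had medians of 0.44 and 0.24, and those of 100 to 300 kb 0.91 and 0.38. The list was not matched for span, so its excess apart from span was not tested. EGFR, the epidermal growth factor receptor, had 932 against 408 CPM (1.19, 1.12 to 1.26) and 1687 against 1243 CPM (0.44, 0.42 to 0.46). It reached 3820 CPM in the 20 to 40% band of RWPE1 cells (1.62). CDH1, the epithelial cadherin, had 229 against 101.4 CPM (1.17) and 152 against 106 CPM (0.52), ITGA2, a collagen-binding integrin, stood at 1.37 and 0.55, and DSG3, a desmosomal cadherin, at 1.14 and 0.64.

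Chaperones of the endoplasmic reticulum were higher for 13 of 15 genes in RWPE-ERG-mAKT members (sum 0.38). There the sum stood at 0.45, 0.31, -0.04 and -0.28 over the 4 bands, and the median of the list was 0.31 but -0.33 at a 15% threshold. In RWPE1 members the sum was 0.06, which changes sign under median-of-ratios scaling. HSPA5, the chaperone BiP, had 399 against 257 CPM (0.63) and 204 against 196 CPM (0.06), and PDIA3, a disulfide isomerase, 282 against 175 CPM (0.69) and 180 against 167 CPM (0.11), of which both RWPE1 ratios change sign under that scaling. Targets of SREBP, the regulator of lipid synthesis, were higher for 14 of 18 genes (77.8%) in either library, with sums of 0.40 and 0.13 and medians of 0.40 and 0.14, beside 59.5% and 73.4% of all genes and all-gene medians of 0.25 and 0.15. Under median-of-ratios scaling the RWPE1 median was 0.02. ACACA, acetyl-CoA carboxylase, had 308 against 119 CPM (1.37) and 318 against 224 CPM (0.51). SCD, a fatty acid desaturase, stood at 0.60 and 0.29.

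Among basal genes the long ones were higher in both libraries, while the short keratins were not. TP63, the master regulator of basal cells, had 152 against 63.1 CPM (1.27, 1.09 to 1.45) and 213 against 149 CPM (0.51, 0.46 to 0.55) on a gene of 266 kb. LAMB3, a chain of laminin-332, stood at 1.17 and 0.35, and ITGA6, a hemidesmosomal integrin, at 0.86 and 0.37. The short basal keratin genes were lower in RWPE-ERG-mAKT members, KRT5 with 1518 against 2074 CPM (-0.45) and KRT14 with 1396 against 2320 CPM (-0.73), but not in RWPE1 members, where KRT5 had 2325 against 2196 CPM (0.08, a ratio that changes sign under median-of-ratios scaling) and KRT14 2097 against 1692 CPM (0.31). In the 20 to 40% band of RWPE1 cells KRT5 stood at -1.36 while TP63 was at 394 CPM (1.40). Of 11 basal genes, 6 (54.5%) were higher in RWPE-ERG-mAKT members and all 11 (100%) in RWPE1 members, beside 59.5% and 73.4% of all genes.

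Luminal-type genes were lower for 7 of 8 measured in RWPE-ERG-mAKT members and 7 of 10 in RWPE1 members. KRT7 had 1996 against 2747 CPM (-0.46) and 1461 against 2205 CPM (-0.59), and KRT18, a keratin of simple epithelium, 445 against 559 CPM (-0.33) and 863 against 1263 CPM (-0.55). KRT8, the partner of KRT18, stood at -0.17 and -0.43. KRT19 stood at 0.49 in RWPE-ERG-mAKT cells and -0.24 in RWPE1 cells. Of the mesenchymal genes FN1, fibronectin, had 34.8 against 19.2 CPM in RWPE-ERG-mAKT cells (0.86) and 35.02 against 53.2 CPM in RWPE1 cells (-0.60), while SNAI2, a repressor of epithelial genes, stood at -1.01 and -0.13.

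To compare detection at equal depth, cells were thinned to 1000 non-mitochondrial UMIs each, which left out 113 members and 509 others of RWPE-ERG-mAKT cells and 82 members and 154 others of RWPE1 cells. TP63 was then seen in 14.7% of members (95% exact binomial interval 11.0 to 19.0) against 5.92% of the rest (5.56 to 6.29) in RWPE-ERG-mAKT cells and in 20.9% (19.1 to 22.7) against 12.9% (12.2 to 13.5) in RWPE1 cells. The unthinned shares, 31.1% against 43.1% and 68.9% against 76.5%, ran the other way, at unequal depth. VIM was seen in 14.1% against 20.4% and in 9.92% against 18.9% of thinned cells (28.4% against 63.9% and 27.2% against 54.6% unthinned). KRT18 was seen in 26.6% against 39.6% and 42.8% against 62.3% (49.3% against 92.2% and 77.8% against 97.7% unthinned), and KRT5 in 71.3% against 80.5% and 72.0% against 82.6% (89.5% against 98.7% and 91.8% against 99.1% unthinned).

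Some keratins of activated epithelium and genes of squamous differentiation stood on opposite sides of 0 in the libraries. The keratin list had medians of -0.51 in RWPE-ERG-mAKT members and 0.31 in RWPE1 members, but its sum was negative in both (-0.51 and -0.11), and the RWPE1 median was -0.29 with depth matched. KRT16 had 64.0 against 98.6 CPM in RWPE-ERG-mAKT cells (-0.62) and 160 against 80.9 CPM in RWPE1 cells (0.98). KRT6A stood at -0.49 and 0.19, and KRT17, the most abundant of them, at -0.51 and -0.20. S100A8 and S100A9, the subunits of calprotectin, had 29.3 against 74.7 CPM (-1.35) and 115 against 210 CPM (-0.87) in RWPE-ERG-mAKT cells. In RWPE1 cells S100A8 had 92.4 against 35.6 CPM (1.37) and S100A9 143 against 79.3 CPM (0.85), but 26.5% and 23.2% of the members' UMIs came from 1 barcode each. S100A8 stood at 1.75 in the 7.5 to 10% band of RWPE1 cells, -0.90 at 10 to 20% and -2.25 at 20 to 40%, so the higher level belonged to the members nearest to the threshold.

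Other short genes of this kind were higher in RWPE1 members as well, with bands of their own. HSPB1, a small heat shock protein, had 1032 against 1699 CPM in RWPE-ERG-mAKT cells (-0.72) and 657 against 423 CPM in RWPE1 cells (0.63), where it stood at 0.83, 0.15 and -1.49 over the first 3 bands. SPRR1B, a precursor of the cornified envelope, had 25.6 against 35.9 CPM (-0.49) and 34.9 against 14.4 CPM (1.27). In RWPE1 cells it stood at 1.32, 1.34 and -1.27 over the same bands. The kallikreins KLK5 and KLK10, secreted proteases, had 29.98 against 13.5 CPM (1.15) and 20.7 against 9.39 CPM (1.14) in RWPE1 cells and only 1 and 4 UMIs in RWPE-ERG-mAKT members. Over the first 3 bands of RWPE1 cells KLK5 stood at 1.18, 1.35 and -0.37 and KLK10 at 1.18, 0.97 and 1.16, so the bands of these genes differed. KRT13, a keratin of hillock-type cells, had 23.2 against 7.29 CPM in RWPE-ERG-mAKT cells (1.67), with 26.3% in 1 barcode, and 219 against 227 CPM in RWPE1 cells.

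Proliferation genes were lower to different degrees. The S phase list was lower for 19 of 23 genes in RWPE-ERG-mAKT members (sum -0.25) and 17 of 23 in RWPE1 members (-0.07), and the G2/M list for 16 of 26 (-0.10) and 26 of 26 (-0.33). The replication-dependent histones, whose messages lack a poly(A) tail, together had 531 against 1244 CPM (-1.23) and 947 against 1456 CPM (-0.62), with 51 of 63 and 50 of 62 genes lower. In the 20 to 40% band of RWPE1 cells the histones stood at -2.98, the G2/M list at -0.63 and the S phase list at -0.07. HIST1H4C carried most of the histone sum. Without it, an alternative chosen after the values were seen, the histones stood at -0.78 in RWPE-ERG-mAKT members and -0.41 in RWPE1 members, and at -1.49 in that band.

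Stress lists differed in size and direction. The ATF4 target list, genes of the integrated stress response, had sums of 795 against 793 CPM (0.00) and 1244 against 1365 CPM (-0.13). GDF15, a secreted stress signal, had 50.6 against 18.1 CPM in RWPE-ERG-mAKT cells (1.48), but 24.1% of the members' UMIs lay in 1 barcode and it stood at 2.10 in the 7.5 to 10% band and -0.35 at 10 to 20%, and in RWPE1 cells it had 22.0 against 20.8 CPM (0.08, a ratio that changes sign under median-of-ratios scaling). SESN2, a sestrin, stood at 1.16 and 0.24 and SLC7A11, the cystine transporter, at 1.23 and 0.08, the last of which changes sign under that scaling. The immediate early list, which responds to cell dissociation, stood at 0.03 and -0.13, with JUN at 278 against 211 CPM (0.40) and 27.4 against 29.99 CPM (-0.13). Heat shock chaperones were lower for 9 of 10 and 7 of 10 genes, with sums of -0.38 and -0.16, and the list of NRF2 targets and AKR1C genes had sums of -0.47 and -0.16. The 3 p53 targets given here were named after their values were seen, MDM2 with 162 against 61.4 CPM (1.40) and 80.7 against 49.1 CPM (0.72), ZMAT3 at 1.52 and 0.41, and CDKN1A, the inhibitor p21 on a gene of 10.9 kb, at 0.32 and 0.36.

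Of 20 interferon response genes 10 were lower in RWPE-ERG-mAKT members and 9 in RWPE1 members (medians -0.01 and 0.08), among them OASL (-1.19 and -0.31) and ISG15 (-0.66 and -0.31), and the 5 measured metallothioneins were all lower in RWPE-ERG-mAKT members (sum -0.45). The summed hypoxia and glycolysis list stood at -0.45 and -0.21. PDK1, a kinase that inhibits pyruvate dehydrogenase, stood at 1.16 and 0.53, and PFKFB3, an activator of glycolysis, at 1.21 and 0.46. Median and sum differed in sign for this list (medians 0.15 and 0.18), and in it CPM is dominated by a few abundant enzymes. The same difference of sign held for the basal list in RWPE-ERG-mAKT cells (median 0.40, sum -0.27) and the activation keratins in RWPE1 cells (median 0.31, sum -0.11).

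**Figure D5:**
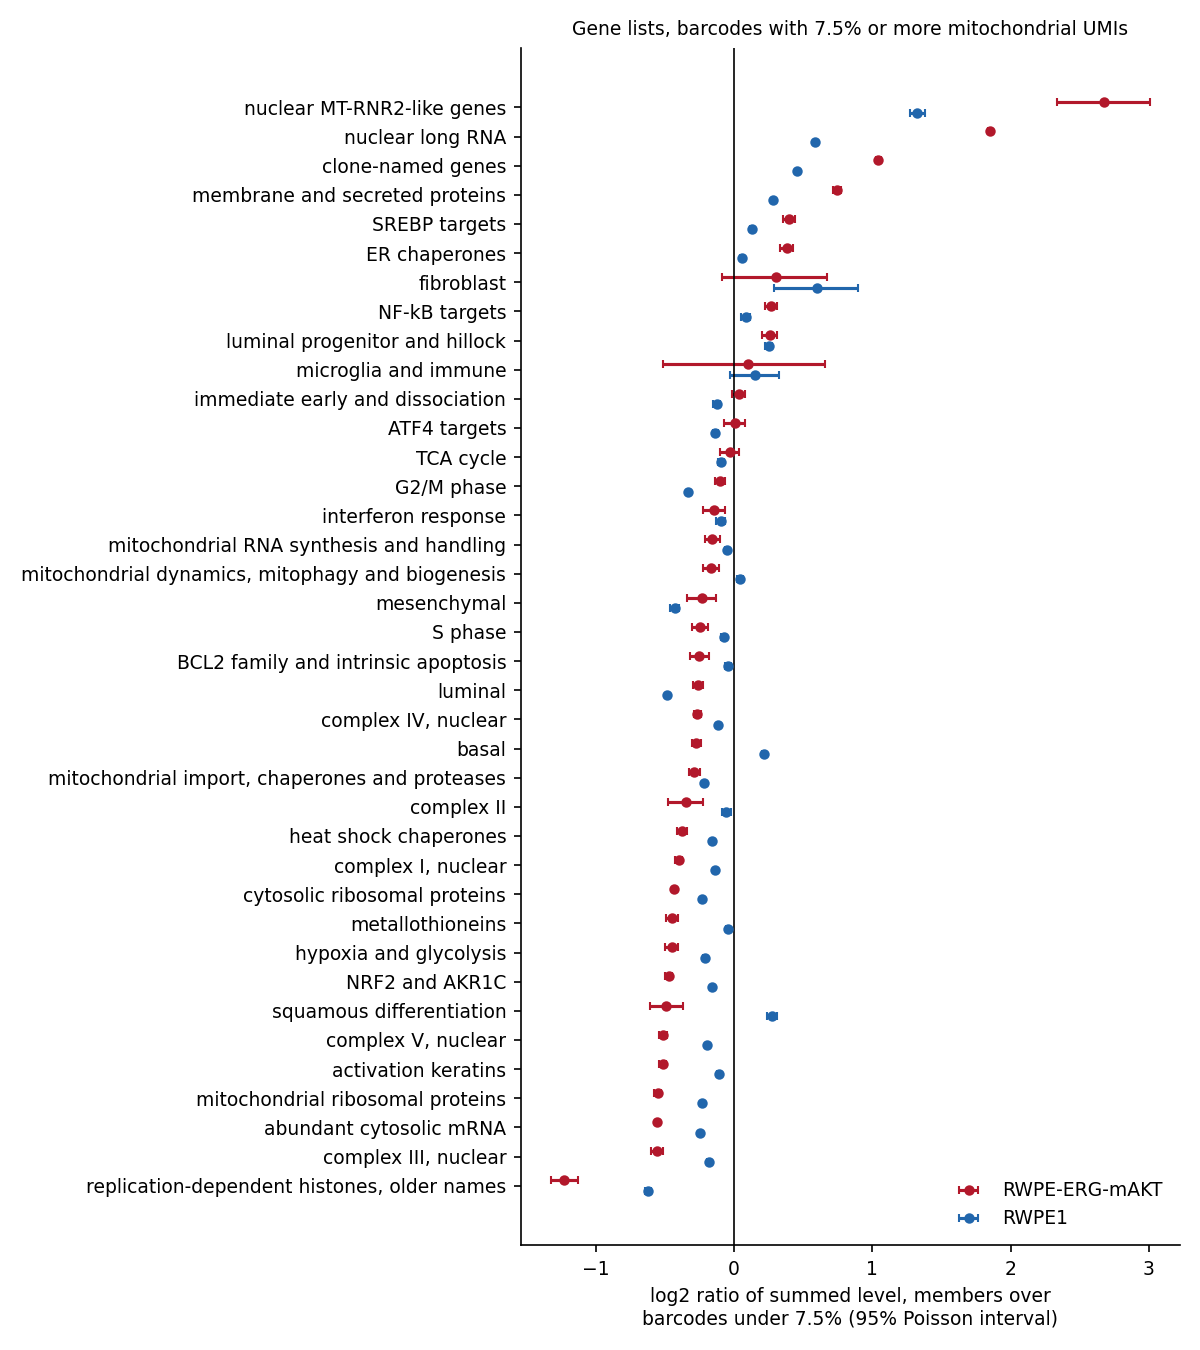
Log2 ratio of the summed level of each gene list (members over barcodes under 7.5% of the same library) with 95% Poisson intervals, for lists with enough UMIs, sorted by RWPE-ERG-mAKT. The MTRNR2L genes (2.68 and 1.33) stand at the top, nuclear long RNA (1.85 and 0.59) next to them in RWPE-ERG-mAKT cells, and replication-dependent histones (-1.23 and -0.62) at the bottom in RWPE-ERG-mAKT and RWPE1 cells.

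Most defining markers of other cell types were at or near 0 in members, with DCN, a matrix proteoglycan, and CD68 among the exceptions. PTPRC, the pan-leukocyte antigen, had 0 UMIs in RWPE-ERG-mAKT members and 13 in RWPE1 members, TYROBP had 0 and 1, and AIF1 had 0 and 3. COL3A1, LUM and COL1A2, genes of fibroblast matrix, had 0 in both, and CDH5, the endothelial cadherin, had 0 and 1. The immune list summed to 15.9 against 14.8 CPM and 14.1 against 12.7 CPM, most of it CD68, and the fibroblast list to 36.6 against 29.6 CPM, most of it DCN (47 UMIs in RWPE-ERG-mAKT members), and 5.13 against 3.38 CPM (0.60, 0.29 to 0.90, from 108 UMIs in RWPE1 members). The endothelial list had 6 UMIs in RWPE-ERG-mAKT members (3.66 against 1.15 CPM) and 0.855 against 0.654 CPM in RWPE1 cells. Choroid plexus genes summed to 0.610 against 0.524 CPM and 2.57 against 3.03 CPM, neuroendocrine genes to 7.93 against 7.03 CPM and 7.55 against 5.36 CPM (0.50, 0.25 to 0.74), and erythroid genes to 0.610 against 1.51 CPM and 0.333 against 1.65 CPM.

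ERG, the transgene of RWPE-ERG-mAKT cells, had 27.4 against 21.2 CPM there (0.37, -0.08 to 0.80, from 45 UMIs in members), a difference not detectable at this depth. In RWPE1 cells, which lack the exogenous gene, it had 3.61 against 1.52 CPM (1.25, 0.86 to 1.62, from 76 UMIs). After thinning ERG was seen in 3.67% (1.91 to 6.32) of members against 1.963% (1.76 to 2.19) of the rest of RWPE-ERG-mAKT cells, and in 0.486% (0.233 to 0.892) against 0.187% (0.112 to 0.291) in RWPE1 cells. Without thinning the shares were 9.09% against 20.9% and 3.09% against 2.25%. After this thinning the intervals of members and the rest overlapped in both libraries. At 2000 UMIs the RWPE1 intervals did not overlap, with 0.825% (0.472 to 1.34) of members against 0.337% (0.233 to 0.470) of the rest. At 500 UMIs RWPE1 members and the rest were alike, at 0.0952% (0.0115 to 0.344) and 0.0969% (0.0465 to 0.178), from 2 and 10 barcodes. So few barcodes cannot show whether the difference in detection in RWPE1 cells depended on the depth of thinning. Overlap of 2 intervals is not a test of a difference, and no test was made.

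Genes that differed more from the rest in RWPE-ERG-mAKT members than in RWPE1 members were mostly long. SRGAP3, a GTPase-activating protein, had 89.0 against 21.7 CPM (2.03, 1.79 to 2.27) and 87.7 against 61.6 CPM (0.51, 0.44 to 0.58), so that members of the libraries had like levels and the rest did not. SLC22A15, a membrane transporter, stood at 1.84 and 0.48, MON2, a regulator of endosome traffic, at 1.84 and 0.50, and CYTH3, an exchange factor for ARF GTPases, at 1.60 and 0.25. On the other side stood PFN2, the neuronal-type profilin, at -1.38 and -0.07, and FABP5, a fatty acid binding protein, at -0.50 and 0.54. With 1 library a condition these differences between libraries have no replicate check, and their members also differ in mitochondrial share and depth.

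The barcodes at the opposite end of the scale, with under 0.5% mitochondrial UMIs, were as shallow as many members and differed in content from the members as a whole. RWPE-ERG-mAKT cells had 1114 of them with a median of 1539.5 non-mitochondrial and 2 mitochondrial UMIs, and RWPE1 cells had 38 with 823.5. Members of RWPE-ERG-mAKT cells had 185881 CPM of ribosomal protein messages, against 293009 CPM in these barcodes, and 33025 CPM of nuclear long RNA, against 2011 CPM. Members of RWPE1 cells had 226595 against 317440 CPM of ribosomal protein messages and 18297 against 1926 CPM of nuclear long RNA. Deep barcodes weigh most in these sums. The shallow RWPE-ERG-mAKT members at 40% or more had 3711 CPM of nuclear long RNA and 265605 CPM of ribosomal protein messages. In these sums they lay closer to the barcodes under 0.5% than to the members as a whole. They were not set apart from members at 20 to 40% in medians over single barcodes. Nuclear long RNA stood at 0.259% against 0.283% at 20 to 40%, and ribosomal protein messages at 26.5% against 29.4%. The MTRNR2L genes did not show this closeness, with 540 CPM at 40% or more and 2.37 CPM under 0.5%.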

How the data were processed

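Single-cell RNA was measured in 1 library of RWPE-ERG-mAKT cells and 1 of RWPE1 cells. UMI counts were produced by the authors with Cell Ranger 7.1.0 (build hg38 in the submitters' processing notes). The deposited matrices hold them per gene and barcode with no normalization. Whether reads in introns were counted is not given in the sources used here. Total UMIs came to 237490385 in RWPE-ERG-mAKT cells and, over barcodes with at least 200 genes, to 217299277 in RWPE1 cells.

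Barcodes were split at 7.5% mitochondrial UMIs. UMIs were summed over members and over the rest of each library, and scaled to CPM without the 13 MT- genes. Log2 ratios carry exact conditional 95% Poisson intervals, shares exact Clopper-Pearson intervals. A gene counted as called when past 2-fold, with at least 50 CPM on either side. Gene lists took genes with at least 10 UMIs, their medians with 1 CPM added to each level and their sums with none. Cells are not replicates and no test was made. No doublet caller was run, and empty droplets were not checked. The 17355 RWPE-ERG-mAKT and 12468 RWPE1 barcodes with at least 200 genes exceeded the 10000 cells loaded for each. A barcode thus need not stand for a single intact cell. Gene spans came from GENCODE 29, which matched 34616 of 36601 identifiers (94.6%), and transcript starts from RefSeq on GRCh38.p14.

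Named genes were the 12 each way with the largest smaller log2 ratio over both libraries, the 6 each way that differed most between libraries, up to 4 of each list with at least 20 CPM, and genes the study names. Some genes the rule named are not reported here. The members and lists were chosen with earlier results of these data known. The histone list under older gene names (also without HIST1H4C) and the depth-matched comparison at 10% were chosen after seeing the data. Alternatives covered the threshold, limits on genes, the comparison barcodes, depth matching (weights in steps of 0.1 in log10 UMIs), cell weights, scaling, floors and the depth of thinning (1000 UMIs, seed 1). The ratios were tested on simulated data. Scripts ran under Python 3.11.15 with pandas 2.3.3, scipy 1.17.1, numpy 2.4.6 and matplotlib 3.10.9.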

Additional observations from a re-analysis of the deposited data

Results flagged for a closer look

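The activation keratins stood on opposite sides of 0 in the libraries, with a median log2 ratio of -0.51 in RWPE-ERG-mAKT members and 0.31 in RWPE1 members. The sums were on the same side, at -0.51 and -0.11, and the RWPE1 median was -0.29 with depth matched, -0.997 at a 15% threshold and -1.65 with 200 to 2500 genes. The difference was not tested, since each condition has 1 library.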

How the results depend on the processing

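Counts and shares followed the choice of threshold, since members ran without a gap into the rest. In RWPE-ERG-mAKT and RWPE1 cells members made up 6.48% and 68.9% of barcodes at 5% or more, 1.65% and 8.27% at 10%, 0.772% and 5.71% at 15%, and 0.415% and 4.16% at 20%. With 200 to 2500 genes, the study's limits, the shares were 10.7% and 60.9%, and with 500 genes as the lower limit 2.11% in RWPE-ERG-mAKT cells.

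In RWPE-ERG-mAKT members the genes past 2-fold higher (959) were 1649 at 10%, 1924 at 15%, 1795 with 200 to 2500 genes, 1878 at 10% with depth matched, and 1761 and 463 with floors of 20 and 100 CPM. Those lower (28) were 318, 546, 185, 402, 54 and 10 under the same 6 settings, 9 against barcodes of 2.5 to 7.5%, 52 with depth matched, 55 with equal weight for each cell and 135 under median-of-ratios scaling. In RWPE1 members those higher (5) were 1119, 2441, 2607, 1257, 15 and 1 under the same 6 settings and 142 with equal weight, and those lower (0) were 125, 913, 949, 170 and 1 under the first 5, 6 with depth matched and 3 with equal weight. In both libraries those higher (1) were 839, 1491, 1516 and 916 under the first 4, 83 with equal weight, and 0 against 2.5 to 7.5%, with depth matched and under median-of-ratios scaling. Those lower in both (0) were 51, 338, 129 and 85 under the first 4 and 1 with equal weight.

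Over all alternatives and whatever their size, 141 of 3799 single-gene ratios and 113 of 1084 list medians changed sign (14 and 14 of them under median-of-ratios scaling). Of these, 14 ratios past 2-fold and 18 medians of at least 0.25 in size (and at least 0.1 on the other side) are given as reversals. In RWPE1 cells S100A8 stood at -1.38 at 10%, -1.88 at 15%, -4.30 with 200 to 2500 genes and -2.89 at 10% with depth matched. KLK5 stood at -0.99 at 15%, -2.61 with 200 to 2500 genes and -0.029 at 10% with depth matched, SPRR1B at -2.09 and -0.56 under the last 2, and KLK10 at -0.20 with 200 to 2500 genes. In RWPE-ERG-mAKT cells GDF15 stood at -0.50 at 10%, -1.71 at 15% and -1.24 at 10% with depth matched, and KRT13 at -1.44 with 200 to 2500 genes. The activation keratins of RWPE1 cells had medians of -0.997 at 15%, -0.29 with depth matched, -1.65 with 200 to 2500 genes and -0.97 at 10% with depth matched. The luminal progenitor and hillock list stood at -0.18 at 10%, -0.43 at 15%, -0.16 with equal weight and -0.88 with 200 to 2500 genes in RWPE-ERG-mAKT cells, and at -0.29 at 15%, -1.62 with 200 to 2500 genes and -0.30 at 10% with depth matched in RWPE1 cells. The other reversals were in RWPE-ERG-mAKT cells. They were the BCL2 family (-0.32 at 15%, -0.14 with equal weight), the chaperones of the endoplasmic reticulum (-0.33 at 15%), the immune list (-0.14 at 15%, -0.95 with 200 to 2500 genes, -0.23 at 10% with depth matched) and the endothelial list (-0.27 at 15%). The cause was not tested.

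No paired analysis was possible because each condition has 1 library and no test was made. Without replicates, intervals cover counting error only, and the 72 RWPE-ERG-mAKT members at 20% or more limit what their bands can show.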
